A study of Parhyale hawaiensis with 10 samples.

Results

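Naked DNA peaks absent from all nuclei were the peaks called after Tn5 transposition of purified DNA of the amphipod crustacean Parhyale hawaiensis that overlapped no peak of any nuclei library by even 1 bp. They numbered 117849 of the 161533 peaks of the naked DNA list, or 73.0% (95% Wilson interval 72.7% to 73.2%), after rows with equal scaffold, start and end had been counted as 1 peak. The other 43684 peaks, 27.0%, overlapped a peak in at least 1 of the 9 nuclei libraries and are called found peaks here. Members were chosen by the measured overlap of the peak calls, so the values of absent and found peaks are given as a description, with no test between them.

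ATAC-seq uses the Tn5 transposase, which cuts DNA and inserts sequencing adapters in 1 step. In nuclei, nucleosomes and other bound proteins keep the enzyme from most of the genome, and peaks of insertions mark open chromatin such as promoters and enhancers. Purified DNA has no such protection. Peaks called on it are known to reflect the sequence preference of Tn5, the ease of amplifying and aligning a stretch, and copy number that the assembly does not show, and such a library serves as a control for peaks that do not depend on chromatin.

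All animals were of the inbred Chicago-F line. Whole embryos were represented by 1 single embryo each at stages 20, 23 and 24. Embryonic legs, 3 libraries, were developing T4 to T8 legs dissected from pooled embryos of stages 25 to 26. Adult legs, 3 libraries, were uninjured T4 and T5 legs, so that age and the set of legs differ together between the leg groups. Naked DNA was 1 library from a whole adult and has no replicate. The part of the protocol used here does not reach the preparation of its DNA. Whether replicate leg libraries stem from different animals is not in the labels. An SD of leg libraries therefore refers to the spread among the libraries at hand, which can be technical.

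The lists give no read totals. Relative depth was read from the background pileup, the genome-wide number of overlapping fragments expected at a position, at 5.11 for naked DNA against 0.233 to 0.555 for nuclei. The nuclei lists held 48324 to 119994 peaks, which merged into 280946 regions. The narrowest peak was 278 bp in naked DNA, exactly 200 bp in the stage 24 embryo and 122 to 152 bp in the other nuclei lists. The pileups of naked DNA and of the stage 24 embryo may therefore be on other scales. Comparisons of depth and of detection limits between lists carry this limit. Intervals on shares of peaks cover counting error only, and peaks of 1 library are not replicates. Positions are 1-based, on scaffolds whose names begin with phaw_50; the sources used here do not name the build, and neither gene annotation nor genome sequence was used.

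The absent peaks covered 60.3 Mb, or 67.2% of the length under naked DNA peaks, and the found peaks covered 29.4 Mb. Of the 14861 scaffolds with a naked DNA peak, 7977 carried an absent peak, and on the other 6884 every naked DNA peak was found in nuclei. Among the found peaks, 17871 were shared with exactly 1 nuclei library, 6906 with 2 libraries, 2231 with 8 and 3166 with all 9. The absent peaks were thus the largest class, and the next largest was the class shared with a single library. By tissue, 12883 naked DNA peaks were found in whole embryos, embryonic legs and adult legs alike. Another 9685 were found in whole embryos alone, 5770 in embryonic legs alone and 5638 in adult legs alone.

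The absent peaks were weak. Their fold enrichment, the authors' deposited ratio of pileup plus 1 to expected pileup plus 1, had a median of 2.62 with quartiles of 2.32 and 2.95. Where a peak had several deposited rows, the row of highest fold gave its fold, q-value and pileup. The found peaks had a median fold of 3.10 with quartiles of 2.56 and 5.38, so the quartile ranges of the classes overlapped, and the upper quartile of the found peaks was the farther from its median. A fold of at least 5 was reached by 2877 absent peaks, 2.44% of them, against 9.02% of all naked DNA peaks and 26.8% of the found peaks. A q-value of at most 1e-05 was reached by 11.2% of the absent peaks, against 19.6% of all naked DNA peaks and 42.1% of the found peaks. These shares belong to the same overlap that chose the members, and nothing is read from their distance to the share of all peaks.

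The medians rose with each further nuclei library that shared a peak. Peaks shared with 1 library had a median fold of 2.78, those shared with 5 libraries 3.60, and those shared with all 9 libraries 9.39. Width followed the same order, from 426 bp in the absent peaks to 500 bp, 583 bp and 794.5 bp in those 3 classes. The share of peaks with several summits was 7.65% in the absent peaks, 13.9% in peaks shared with 1 library and 32.9% in peaks shared with all 9. The absent peaks therefore stood at the low end of a graded series, next to the peaks shared with 1 library.

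**Figure D1:**
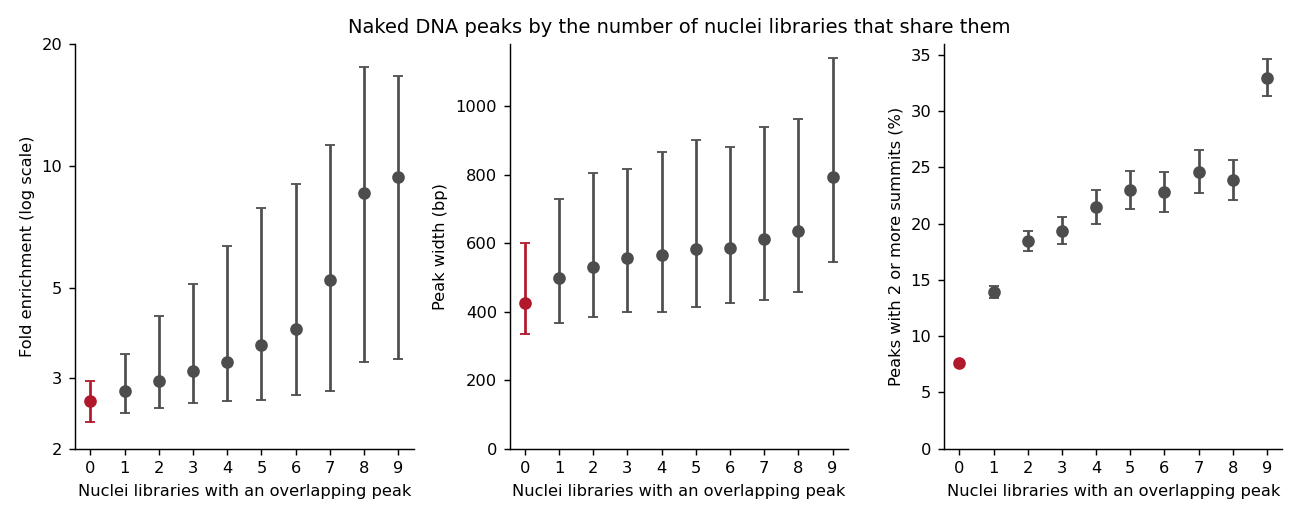
Fold enrichment (log scale), peak width in bp and the percent of peaks with 2 or more summits, plotted against the number of nuclei libraries with an overlapping peak; the absent peaks are at 0, in red. Points are medians with quartiles in the fold and width panels and shares with 95% Wilson intervals in the summit panel, and they run from 2.62, 426 bp and 7.65% at 0 libraries to 9.39, 794.5 bp and 32.9% at 9.

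Read the other way, the share of naked DNA peaks that were absent from nuclei fell with fold. It was 82.7% at folds of 2 to 2.5, 79.2% at 2.5 to 3 and 72.8% at 3 to 4. It was 53.1% at folds of 4 to 5, 33.6% at 5 to 7.5, 19.4% at 7.5 to 10, 9.83% at 10 to 15 and 2.09% at folds of 15 and above. The fall was thus small below a fold of 4 and steeper above it. On scaffolds where peaks reach at least 1 Mb, the share at folds of 5 to 7.5 was 29.6% (28.0% to 31.2%), and on scaffolds where no peak reaches 10 kb it was 41.6% (39.5% to 43.7%). Below a fold of 4 the 2 kinds of scaffold differed by about 1 percentage point or less in each range from a fold of 2 upward.

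**Figure D2:**
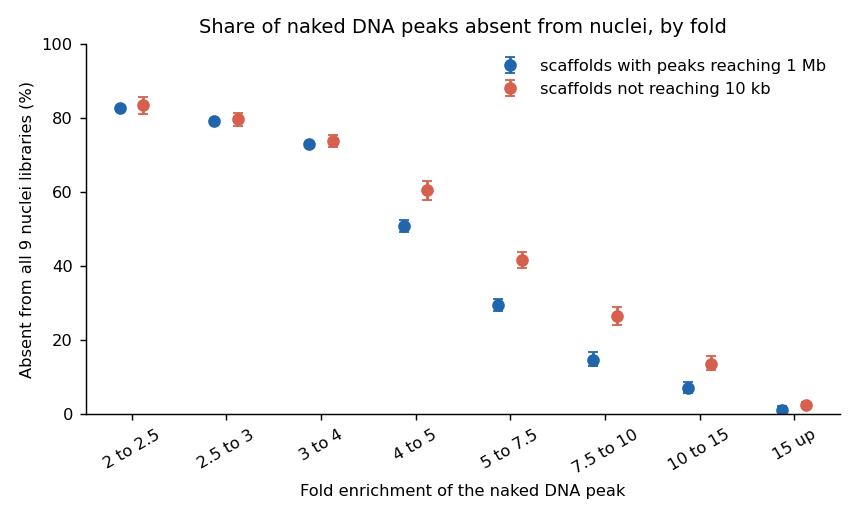
The percent of naked DNA peaks absent from all 9 nuclei libraries, by the fold enrichment of the peak, for scaffolds on which peaks reach 1 Mb (blue) and scaffolds on which no peak reaches 10 kb (red). Points are shares with 95% Wilson intervals; they fall from above 82% at folds of 2 to 2.5 to below 3% at folds of 15 and above, and between folds of 4 and 15 the red points lie above the blue ones.

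Pileups show how few fragments lay under an absent peak. The pileup at the summit had a median of 18 fragments, with quartiles of 16 and 20, in the absent peaks, and a median of 21, with quartiles of 17 and 41, in the found peaks. The most frequent value in the absent peaks was 16, against a lowest value of 13 in the whole naked DNA list. The expected pileup had medians of 5.61 and 5.45. It lay at the genome-wide background in 39.0% of the absent peaks and in 43.9% of the found peaks. An expected pileup of at least 2 times the background was found in 2.60% of the absent peaks and in 9.96% of the found peaks. It may include fragments of the peak itself. At phaw_50.088644:1-559, the only naked DNA peak of a scaffold reaching 559 bp, the expected pileup was 44.1.

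Detection limits differed between the naked DNA list and the nuclei lists. Where the expected pileup was at background, the lowest pileup called in naked DNA was 13, which is 2.54 times the background. In the nuclei libraries the lowest pileup called at background was 3 or 4, which is 7.21 to 12.9 times their own background. The median ratio of pileup to expected pileup was 2.94 in the absent peaks and 3.42 in the found peaks. A ratio of 7.21 was reached by 1548 absent peaks (1.31%) and by 21.2% of the found peaks. A ratio of 12.9 was reached by 230 absent peaks (0.195%) and by 10.5% of the found peaks. Most absent peaks had ratios in naked DNA that no nuclei list called at background. These limits come from rows at background, which were 18.8% to 28.0% of the rows of a nuclei list. They were set against all naked DNA peaks, though only 39.0% of the absent peaks were at background. The limits away from background are not given here, and the part of any such limit in the absence was not tested. The pileups of naked DNA and nuclei may also be on different scales.

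Of the 4830 naked DNA peaks that reached the ratio called at background in every nuclei library, 230 were absent from nuclei, or 4.76% (4.20% to 5.40%). The share was 58 of 1496, or 3.88%, on scaffolds with peaks reaching 1 Mb, and 157 of 2861, or 5.49%, where no peak reaches 10 kb. Of these 230 peaks, 68.3% lay on a scaffold with no nuclei peak at all. Their median width was 531 bp, against 628.5 bp in the found peaks above the same ratio. This subset was defined after the values had been seen.

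The absent peaks were also narrow. Their median width was 426 bp (quartiles 336 and 600 bp, range 278 to 3493 bp), and that of the found peaks 551.5 bp (quartiles 392 and 823 bp, up to 4670 bp). A width of at least 1 kb occurred in 5.42% of the absent peaks and in 16.2% of the found peaks, and a width under 300 bp in 10.5% and 5.36%. Among all naked DNA peaks the absent share was 84.1% below 300 bp, 71.7% at 500 to 600 bp, 51.4% at 1000 to 1500 bp and 25.8% at 2000 bp and above. Over the whole naked DNA list the median fold rose with width as well, from 2.5 below 300 bp to 3.74 at 2000 bp and above. That fold is the highest among the rows of a peak, and wide peaks more often had several rows. Among peaks with a fold under 3 the absent share still ran from 86.6% below 300 bp to 53.6% at 1500 bp and above.

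A peak is deposited with 1 row for each summit, a local maximum of the pileup. The absent peaks had 2 or more summits in 9018 cases, 7.65% (7.5% to 7.81%), and the found peaks in 8271 cases, 18.9% (18.6% to 19.3%). 3 or more summits occurred in 0.987% and 4.84%. The absent share was 75.4% among peaks with 1 summit, 56.1% with 2, 38.1% with 3 and 27.3% with 4 or more. Over the whole list, 0.105% of the peaks of 300 to 400 bp and 59.4% of those of 1000 to 1500 bp had several summits. Within 10 width classes of equal size the difference in the share of peaks with several summits shrank from -11.3 to -1.20 percentage points, and within 10 fold classes, added after the data were seen, to -6.00. Among peaks of 600 to 1000 bp the absent share was 66.3% with 1 summit and 62.0% with several.

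The narrower width, lower fold and fewer summits of absent peaks were also seen scaffold by scaffold. The scaffolds divide 1 list and are not replicates. Under a rule of 1 bp, a wider peak has more bases that can overlap, and the part of this was not tested. On the 158 scaffolds with peaks reaching at least 1 Mb, the absent peaks had the lower median width on 157, the lower median fold on 153 and the lower share of several summits on 157. On the 148 of them with at least 20 found peaks, these counts were 148, 146 and 148. The absent share on the 158 scaffolds had a median of 76.5%, with quartiles of 72.9% and 79.5%. Among scaffolds with at least 20 found peaks it was lowest on phaw_50.282260c, with 76 of 134 peaks or 56.7%, and highest on phaw_50.283828b, with 1772 of 2064 or 85.9%.

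Scaffold size was judged by its reach, the end of the last peak of any of the 10 lists on it. No scaffold lengths were used here, and a scaffold may be longer than its reach. For the only peak of a scaffold, reach is the end of that peak. Reach also counts nuclei peaks, which chose the members. Scaffolds are called short or long by reach alone. The absent peaks lay on scaffolds with a reach of at least 1 Mb in 90.6% of cases, against 77.4% of the found peaks. A reach under 10 kb applied to 6762 absent peaks, 5.74% (5.61% to 5.87%), and to 6897 found peaks, 15.8% (15.4% to 16.1%). The absent share rose with reach, from 45.8% below 500 bp and 46.3% at 500 to 1000 bp to 57.3% at 1 to 10 kb and 76.0% at 1 Mb and above. Fold moved with reach as well. The median fold of the absent peaks was 2.62 on scaffolds reaching 1 Mb and 3.44 on those not reaching 10 kb, and that of the found peaks was 2.82 and 8.35.

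Strong naked DNA peaks of either class lay mostly on scaffolds of short reach. A fold of at least 10 was reached by 333 absent peaks, 0.283% of them, against 3.57% of all naked DNA peaks. Of all 5759 such peaks, 3134 lay on scaffolds not reaching 10 kb, or 54.4%. Of the 333 absent ones, 212 did, or 63.7%, while 97 lay on scaffolds reaching 1 Mb and 211 on scaffolds with no nuclei peak. Of the 230 absent peaks above the ratio called at background in every nuclei library, 157 were on such short scaffolds. That share exceeded the share of the found peaks above the same ratio by 9.48 percentage points, the reverse of the direction over all peaks. A start within the first 10 bp of the scaffold was seen in 0.188% of the absent peaks and in 2.61% of the found peaks, all on scaffolds not reaching 1 Mb. The absent peak was the only naked DNA peak of its scaffold in 5.23% of cases, and the found peak in 15.1%.

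The strongest absent peaks are named here with the strongest found peaks for scale. The highest fold of an absent peak was 27.9, at phaw_50.063825:1-542, where the peak of 542 bp filled the scaffold as far as any peak reached and the pileup was 233 over an expected 7.37. The next 5 absent peaks by fold, on phaw_50.085045, phaw_50.065754, phaw_50.004477, phaw_50.069602 and phaw_50.023296, had folds of 25.8 to 27.0 on scaffolds reaching 574 to 995 bp. None of these 6 scaffolds had a nuclei peak. The 7th and 8th lay on long scaffolds. At phaw_50.283863e:5801322-5801817 the pileup was 144 over an expected 5.11, a fold of 23.7, and the nearest nuclei peak was 34.5 kb away. At phaw_50.283829a:7146030-7146554 the pileup was 130 over 5.11, a fold of 21.4, with a nuclei peak 5.46 kb away. The 4 found peaks of highest fold, on phaw_50.077650, phaw_50.048714, phaw_50.073078 and phaw_50.088644, had folds of 34.3 to 34.8 and pileups of 812 to 1961. They were shared with 8 or 9 nuclei libraries, also on scaffolds reaching under 1 kb. The expected pileups of these 4 found peaks were 22.6 to 55.4, against 5.11 to 7.37 in the 8 absent peaks. Their ratios of pileup to expected pileup were 35.1 to 35.9, and the highest ratio in the whole naked DNA list was 35.9. Among these examples pileups thus differed more than folds did, while the expected pileup differed as well.

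The widest absent peak was phaw_50.002190:85627-89119, 3493 bp with 4 summits and a fold of 4.36. The next 3, on phaw_50.283867c, phaw_50.283811 and phaw_50.283868e, were 3235 to 3491 bp wide with 4 to 6 summits and folds of 2.52 to 3.63. The nearest nuclei peak lay 6.59 to 13.8 kb from these 4 peaks. The 8 absent peaks of highest fold, in contrast, each had 1 summit and were 496 to 735 bp wide.

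The absent peaks were slightly farther from their neighbours than the found peaks. The spacing, the distance from a peak to the nearest other naked DNA peak on the scaffold, had a median of 5093 bp (quartiles 1355 and 9838 bp) in the absent peaks and 4823 bp (quartiles 1286 and 9140 bp) in the found peaks. The difference of 270 bp was small beside the quartile range of either class, and it was 49 bp when nuclei peaks were held to a q-value of at most 1e-05 and -109 bp when naked DNA peaks were. On the 158 long scaffolds the absent peaks had the wider median spacing on 85. Peaks alone on their scaffold have no such neighbour. For the others, the nearest naked DNA peak was itself absent from nuclei for 78.2% of 111683 absent peaks and for 67.5% of 37078 found peaks. Of the 148761 naked DNA peaks with such a neighbour, 111683 were absent.

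Neighbouring peaks on the long scaffolds had a dip in their spacing that recurred in every class of pair. Among 140412 neighbouring pairs, 4623 had summits 3 to 4 kb apart and 8991 had summits 5.5 to 6.5 kb apart, a ratio of 1.94. Pairs of 2 absent peaks numbered 2698 and 5093 in these ranges, a ratio of 1.89. The ratio was 1.99 for mixed pairs and 2.2 for pairs of 2 found peaks. The expected pileup varied with the spacing of a peak, without a steady rise or fall. Among absent peaks it was at background in 36.9% at a spacing of 0 to 1000 bp and in 27.5% at 2000 to 3000 bp. At 5500 to 6500 bp it was at background in 38.2%, and at 10000 to 20000 bp in 36.7%. None of these ranges covers 3 to 4 kb, and spacing is the gap to the nearest peak, not a distance between summits. The part of the expected pileup in the dip was not tested.

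**Figure D3:**
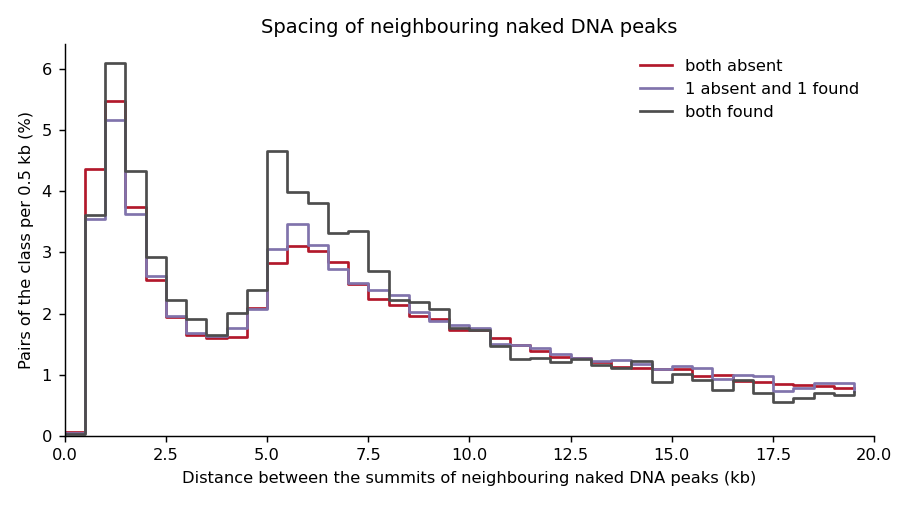
The distance in kb between the summits of neighbouring naked DNA peaks on scaffolds reaching 1 Mb, as the percent of pairs of each class in steps of 500 bp, for pairs of 2 absent peaks (red), mixed pairs (purple) and pairs of 2 found peaks (grey). All 3 lines dip between 3 and 4 kb and rise again by 5.5 kb, with ratios of 1.89, 1.99 and 2.2 between the counts at 5.5 to 6.5 kb and at 3 to 4 kb.

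The absent peaks were spread over nearly all of the long scaffolds. In 24520 windows of 100 kb the median was 4 absent peaks (quartiles 2 and 6), 4.08% of the windows held none, and 899 held at least 10. The variance of the count was 1.52 times its mean. The window with the most was phaw_50.282997b at 1.4 to 1.5 Mb, with 21 absent peaks among 23 naked DNA peaks and 4 nuclei regions. The next were phaw_50.283562a at 14 to 14.1 Mb, with 18 of 22 and 7 nuclei regions, and phaw_50.282997b at 0.9 to 1 Mb, with 18 of 19 and 13 nuclei regions. Nuclei regions were thus present in each of these 3 windows.

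Consecutive absent peaks, with no found peak between them, formed runs with a median length of 3 peaks. Runs of at least 20 peaks numbered 401 and held 9.95% of the absent peaks on the long scaffolds. The longest, chosen after its values were seen, had 85 peaks over 1218 kb at phaw_50.283828a:16122278-17340089, with a median fold of 2.70. It contained 34 nuclei regions, none of which overlapped a naked DNA peak. Nuclei regions lay inside every run of at least 20 peaks.

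The absent peaks lay among nuclei peaks. The distance from an absent peak to the nearest nuclei peak had a median of 3220 bp, with quartiles of 960 and 7837 bp, over the 111382 absent peaks with a nuclei peak on the scaffold. It was under 100 bp for 3.54% of all absent peaks, 100 to 500 bp for 10.7%, 500 to 1000 bp for 10.1% and 1 to 5 kb for 34.2%. It was 10 to 50 kb for 17.1%, 50 to 100 kb for 707 peaks and at least 100 kb for 60. The remaining 6467 absent peaks, 5.49%, had no nuclei peak on their scaffold. Of these, 6002 were on scaffolds not reaching 10 kb, and 5634 were the only naked DNA peak of the scaffold. Fold and width hardly varied with distance, with median folds of 2.57 to 2.64 and median widths of 420 to 454 bp in the 8 distance classes. The absent peaks with no nuclei peak on the scaffold stood outside both ranges, with a median fold of 3.44 and a median width of 397 bp.

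For scale, the found peaks had a median distance of 3504 bp to the nearest nuclei peak that did not overlap them. On scaffolds reaching 1 Mb the medians were 3223 bp for absent and 3541 bp for found peaks. The order of the classes depended on the processing, and the difference of -284.5 bp turned to 4376 bp with nuclei peaks of a q-value of at most 1e-05 and to 718.5 bp with nuclei lists of equal length. The absent peaks were more frequent at both ends, with 3.73% against 2.63% under 100 bp and 18.1% against 14.0% at 10 to 50 kb.

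**Figure D4:**
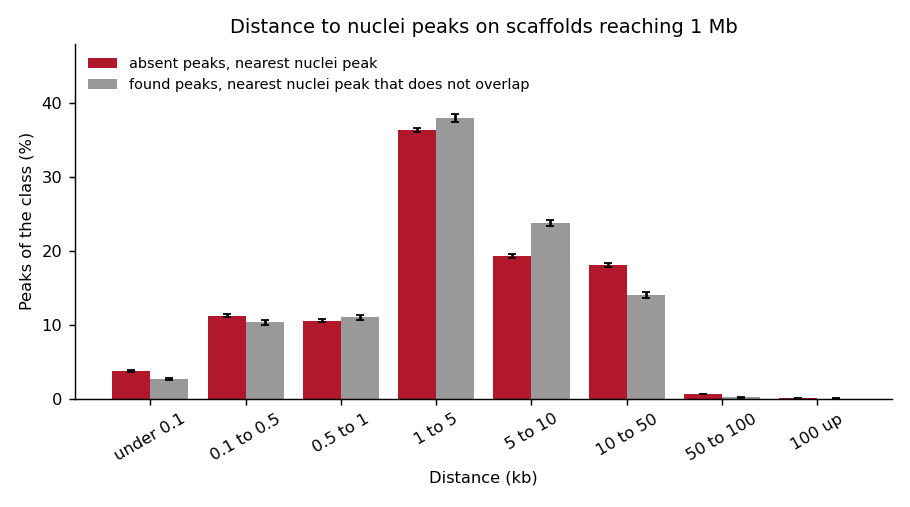
The percent of absent peaks (red) by distance in kb to the nearest nuclei peak, and of found peaks (grey) by distance to the nearest nuclei peak that does not overlap them, on scaffolds reaching 1 Mb, with 95% Wilson intervals. Both classes are highest at 1 to 5 kb, with 36.4% and 38.0%, and the red bars exceed the grey ones under 500 bp and from 10 kb upward.

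The border of the rule was sharp in definition and not in the values beside it. Within 10 bp of a nuclei peak lay 600 absent peaks, 44 of them touching it without sharing a base, and 431 found peaks overlapped a nuclei peak by at most 10 bp. The median width was 415 bp just outside the overlap and 444 bp just inside it, and the median fold was 2.56 and 2.62. Ties in the smallest gap or overlap went to the higher fold, so the peaks named next need not be typical of the border. Among the 44 touching absent peaks this gave phaw_50.007301a:476695-477437, with a fold of 6.55. A found peak that shared 1 bp with 1 library was phaw_50.001246:316913-317523, with a fold of 4.09.

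The 4 absent peaks farthest from a nuclei peak were all on phaw_50.283842, between positions 349674 and 413524, at 184 to 209 kb. The farthest, phaw_50.283842:370560-371555, was 996 bp wide with 2 summits and a fold of 3.03. They lay in the longest stretch between nuclei regions on the long scaffolds, phaw_50.283842:161459-597915, 436 kb with 27 absent peaks of folds up to 3.60. There were 624 such stretches of at least 100 kb, 83.1 Mb in all, and 54 of them held no absent peak. The absent peaks had a density of 3.69 per 100 kb in them, against 4.34 per 100 kb over all long scaffolds. Absent peaks were thus less dense in these stretches than over the long scaffolds as a whole.

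Each nuclei library on its own overlapped a small share of the naked DNA list. The embryo of stage 20 overlapped 10.5%, that of stage 23 8.79% and that of stage 24 10.8%. The share was 10.1%, 8.53% and 12.0% in embryonic legs 1 to 3 and 9.34%, 9.17% and 7.67% in adult legs 1 to 3. The leg groups overlapped, since embryonic legs 2 lay below adult legs 1 and 2. The mean was 10.2% ± 1.75 (SD, n = 3) in embryonic legs and 8.73% ± 0.919 (SD, n = 3) in adult legs, a difference of 1.47 percentage points. Since overlap with these libraries also chose the members, the shares are a description, with no test.

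Distance to the absent peaks separated the leg groups without overlap. The median distance from an absent peak to the nearest peak of the library was 15178.5, 19504.5 and 9843 bp in embryonic legs 1 to 3 and 21773, 25899 and 26752 bp in adult legs 1 to 3. The mean was 14842 ± 4840 bp (SD, n = 3) against 24808 ± 2663 bp (SD, n = 3), a difference of -9966 bp. The distances are also a description, with no test, because the same peak calls chose the members. The single embryos gave 18729 bp at stage 20, 19410 bp at stage 23 and 9366 bp at stage 24.

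The number of peaks moved with both measures. Embryonic legs 1 to 3 had 87308, 77357 and 119487 peaks and adult legs 1 to 3 had 76268, 49502 and 48324. Per 1000 peaks of the library, 175 ± 12.0 (SD, n = 3) naked DNA peaks were overlapped in embryonic legs and 251 ± 51.0 (SD, n = 3) in adult legs, the reverse order. With the 48324 strongest peaks of every library, the share of naked DNA peaks overlapped was 5.49% ± 0.421 (SD, n = 3) in embryonic legs and 7.70% ± 1.34 (SD, n = 3) in adult legs, a difference of -2.21 percentage points. The median distances were then 34762.5, 35285 and 33731 bp in embryonic legs 1 to 3 and 37985, 26119 and 26335 bp in adult legs 1 to 3. Their difference of means turned to 4446.5 bp, but the groups overlapped, since adult legs 1 lay farthest of all. The direction of both differences of means thus turned when the lists were given the same length.

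**Figure D5:**
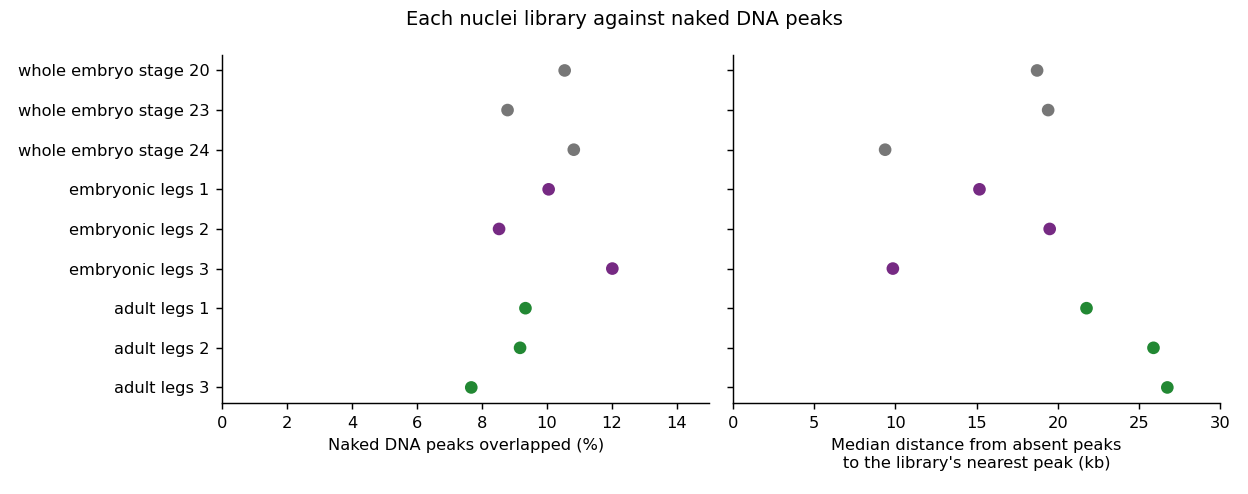
For each nuclei library, the percent of the 161533 naked DNA peaks that it overlaps and the median distance in kb from the absent peaks to its nearest peak; whole embryos are grey, embryonic legs purple and adult legs green, and each point is 1 library. The shares run from 7.67% to 12.0% with overlapping leg groups, and the 3 adult leg libraries lie farther from the absent peaks, at 21.8 to 26.8 kb, than the 3 embryonic leg libraries do.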

How the data were processed

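The submitters' processing notes list, without role or order, MACS2 2.2.7.1, Picard, bedtools 2.31.1, SAMtools 1.21 and Bowtie2 2.5.4. For the control library, calling threshold and genome size they are silent: not given in the sources used here. The authors deposited 1 peak list per library, with fold enrichment as a ratio, p-value and q-value as −log10 values, and a display score that was not used. The lowest deposited −log10 q was 1.3 in each list, to 1 decimal.

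A whole pileup and an expected pileup were solved from the fold and the p-value for 100% of the rows of every list (−log10 p within 0.002 or 0.0001 of its size). The most frequent expected pileup was taken as background. Shares carry 95% Wilson intervals. Exact two-sided permutation tests of the leg libraries were planned for their overlap with naked DNA and for their distances. They are not given, because the same peak calls chose the members. The work used scipy 1.17.1, pandas 2.3.3, numpy 2.4.6 and Python 3.11.15. Overlaps were tested on simulated data and checked against bedtools.

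The members, the measures and the rule for named peaks were chosen with earlier results of these data known. Ties under the rule went to the higher fold. By that rule the text names the 8 absent peaks of highest fold, the 4 widest, the 4 farthest from a nuclei peak, the 4 found peaks of highest fold, the 3 windows of 100 kb richest in absent peaks, and the peaks of smallest gap and smallest overlap; other named runs, stretches and scaffolds were chosen after their values were seen. Alternatives were stricter q-values, equal list lengths, a 50% overlap, nuclei peaks widened by 500 bp, counting every summit row, long scaffolds alone, width or fold classes, and leaving out libraries.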

Additional observations from a re-analysis of the deposited data

How the results depend on the processing

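Absent peaks stayed narrower, and less often had several summits, under every alternative run. The reported values are 117849 absent peaks, differences (absent minus found) of -125.5 bp in median width, -11.3 percentage points in peaks with several summits, 270 bp in spacing and -10.1 points in peaks on scaffolds not reaching 10 kb, and a median of 3220 bp to the nearest nuclei peak. In that order, other values were as follows.

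With nuclei peaks of a q-value of at most 1e-05, width was -132 bp, summits -10.9, spacing 49 bp, short scaffolds -13.1 and distance 10977 bp. With naked DNA peaks of that q-value the count was 13228, width -147 bp, summits -10.7, spacing -109 bp, short scaffolds -9.13 and distance 4037 bp. With nuclei lists of equal length width was -138 bp, summits -12.5, short scaffolds -13.7 and distance 6442 bp. An overlap of at least 50% gave -147 bp, -13.1, -12.2 and 2861 bp for these 4 measures, and nuclei peaks widened by 500 bp gave -81.0 bp, -7.81, -5.51 and 3841 bp. Without the 3 whole embryos they were -134 bp, -12.0, -11.0 and 5319 bp. Counting every summit row gave a width of -207 bp, short scaffolds of -8.55 and a distance of 3302 bp. Long scaffolds alone gave a width of -134 bp and summits of -11.9. Within 10 width classes summits were -1.20 and short scaffolds -11.9; within 10 fold classes, added after seeing the data, width was -86.3 bp and summits -6.00. The 230 absent peaks above the ratio called at background in every nuclei library, also added after seeing the data, gave -97.5 bp, -10.2, a spacing of 959 bp, 9.48 for short scaffolds and 5155 bp.

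Leaving out 1 nuclei library at a time gave 118672 to 121148 absent peaks, widths of -130 to -126 bp, summits of -11.8 to -11.2, short scaffolds of -10.7 to -9.84 and distances of 3323.5 to 3989 bp. The distance to the nearest nuclei peak that does not overlap, -284.5 bp as reported, turned to 4376 bp with the stricter nuclei q-value, 718.5 bp with equal numbers of peaks, 639 bp without the whole embryos and 155.8 bp within fold classes. For embryonic minus adult legs, equal numbers of peaks gave -2.21 percentage points of naked DNA peaks overlapped and 4446.5 bp of distance. Leaving out 1 leg library gave 0.562 to 2.3 points and -12289 to -7468 bp. The causes of these changes were not tested.

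Same-numbered leg libraries did not deviate together in the naked DNA peaks they overlapped (correlations of -0.0268 to -0.0208). Whether they share animals or a batch cannot be told from these values. With the replicate number as a block the differences of 1.47 points and -9966 bp, given with no test, are the same by arithmetic. The block is therefore no check of them. With 1 naked DNA library, neither the list nor its weak peaks have a replicate check. The lowest pileup called at background in nuclei was 3 or 4 fragments, and its part in the absence of peaks was not tested.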
